A study of Mus musculus with 3 samples.

Results

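The genes described here are 10 markers of leukocytes of the pregnant uterus, and they were taken by their symbols from a table of 23421 genes. *Gzmc*, *Gzmd*, *Gzme*, *Gzmf* and *Prf1* encode granzymes and perforin of uterine natural killer (NK) cells. *Ptprc* encodes CD45, the surface phosphatase of nearly all leukocytes. *Lyz2*, *C1qa*, *C1qb* and *Csf1r* mark macrophages and monocytes.

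RNA was sequenced from E6.5 mouse embryos labelled as strain 129/SvEv and obtained by intercrossing *tw18*/+ mice. *tw18* is a recessive lethal deletion of the *t*-complex that removes *Ppp2r1a*, the scaffold subunit of the phosphatase PP2A. The 3 groups were wild type, *tw18*/+ (the deletion on 1 chromosome) and *tw18*/*tw18* (the deletion on both chromosomes), and no other allele or treatment is listed for any of them. Each group was 1 library, so that no difference below has a replicate check, a p-value or a standard deviation. Epiblast is the tissue given in the sample labels, whereas the dissection described in the methods kept the epiblast together with the visceral endoderm around it. The number of embryos behind each library is not given in the sources used here.

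The pregnant mouse uterus surrounds the early embryo with decidua, a tissue made by stromal cells after implantation. Uterine NK cells gather in the decidua and store perforin, which opens target membranes, together with granzymes, serine proteases that enter through these openings. Granzymes C to G are encoded side by side and are known for high levels in uterine NK cells. Macrophages of the uterus depend on colony stimulating factor 1, which signals through CSF1R, and they make lysozyme and the complement protein C1q, whose A, B and C chains assemble into 1 molecule. *Csf1r* is also transcribed in trophoblast giant cells and decidua, so that it is not specific to macrophages in the implantation site.

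Values are FPKM, the fragments on a gene per kilobase of transcript, scaled by the size of the library. The methods call them normalized, and how the libraries were scaled to each other is not given. From the steps between low FPKM values, the depth was estimated at 13700000 fragments in wild type, 19300000 in *tw18*/+ and 19100000 in *tw18*/*tw18*. These depths hold on the scale of the deposited values and can differ from the mapped fragments. Of the low values used, 85.0% to 85.2% were less than 0.2 away from whole fragment numbers. The spacing was chosen on these same values to bring them near whole numbers, so that this share describes the fit and is no separate check of the depth. Each range in brackets is an exact Poisson 95% interval around an estimated fragment number, and it covers counting error only, since PCR copies cannot be told from separate molecules here. *Ppp2r1a* followed the labels, with FPKM of 146 in wild type, 81.7 in *tw18*/+ and 12.8 in *tw18*/*tw18*, where it was low but not at 0. Between 7178 and 8328 genes per library were listed at 0. An exact 0 can be a failed estimate in such a table, so that genes at 0 are given as listed at 0 and without a fold. In RNA of whole tissue pieces, a change in the number of cells of a type and a change in RNA per cell cannot be told apart.

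The 4 granzyme genes lie together on the reverse strand of chromosome 14 (GRCm38, GENCODE M21 annotation). *Gzme* occupies chr14:56117626-56120625, *Gzmd* chr14:56129556-56132608, *Gzmf* chr14:56205263-56211417 and *Gzmc* chr14:56231441-56234656. *Gzmg* and *Gzmn* lie between *Gzmd* and *Gzmf*, and *Gzmb* follows *Gzmc*. How near the 4 coding sequences are bears on every granzyme value below, since a fragment from a shared stretch can be counted for another gene. The following stretches of 60 bases come from exon 3 of 5 and are the most alike, with capitals at the 3 positions that differ among the genes, for *Gzmc* (chr14:56232758-56232817), *Gzmd* (chr14:56130708-56130767), *Gzme* (chr14:56118759-56118818) and *Gzmf* (chr14:56206431-56206490).
Gzmc: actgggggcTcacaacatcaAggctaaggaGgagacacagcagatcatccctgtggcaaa
Gzmd: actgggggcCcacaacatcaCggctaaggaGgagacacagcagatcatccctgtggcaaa
Gzme: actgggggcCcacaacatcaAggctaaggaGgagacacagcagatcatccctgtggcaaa
Gzmf: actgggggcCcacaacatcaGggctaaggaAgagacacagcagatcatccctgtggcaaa
Compared with *Gzmd*, *Gzme* had 1 different base in this stretch, and *Gzmf* and *Gzmc* had 2 each.

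The stretches of 60 bases that differ most lie in exon 5 of 5, where 37 positions differ among the 4 genes, again in capitals. They span chr14:56231573-56231632 in *Gzmc*, chr14:56129734-56129793 in *Gzmd*, chr14:56117785-56117844 in *Gzme* and chr14:56205434-56205493 in *Gzmf*.
Gzmc: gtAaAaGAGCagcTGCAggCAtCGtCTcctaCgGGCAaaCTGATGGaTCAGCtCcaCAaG
Gzmd: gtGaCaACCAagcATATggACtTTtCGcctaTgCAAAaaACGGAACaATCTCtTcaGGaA
Gzme: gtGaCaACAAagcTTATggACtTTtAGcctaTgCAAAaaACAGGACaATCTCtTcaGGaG
Gzmf: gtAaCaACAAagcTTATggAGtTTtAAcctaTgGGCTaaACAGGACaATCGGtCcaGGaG
Here *Gzmc* stood apart with 33 bases different from *Gzmd*, whereas *Gzmf* had 16 and *Gzme* had 6.

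Over the aligned transcripts, *Gzmd* and *Gzme* were 94.8% identical, *Gzmd* and *Gzmf* 86.5%, and *Gzme* and *Gzmf* 86.4%. *Gzmc* was 70.2% to 70.9% identical to the other three. Of the words of 50 bases in the *Gzmd* transcript, the length of 1 sequenced read, 21.9% (200 of 915) also occurred in another gene. The share was 20.6% for *Gzme* (179 of 867), 7.36% for *Gzmf* (64 of 870) and 4.14% for *Gzmc* (35 of 845). *Gzmd* and *Gzme* had 110 such words in common, whereas *Gzme* and *Gzmf* had 0. *Gzmd* and *Gzme* are therefore the pair whose single values are the least certain, and the summed granzyme level is given beside them.

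**Figure D1:**
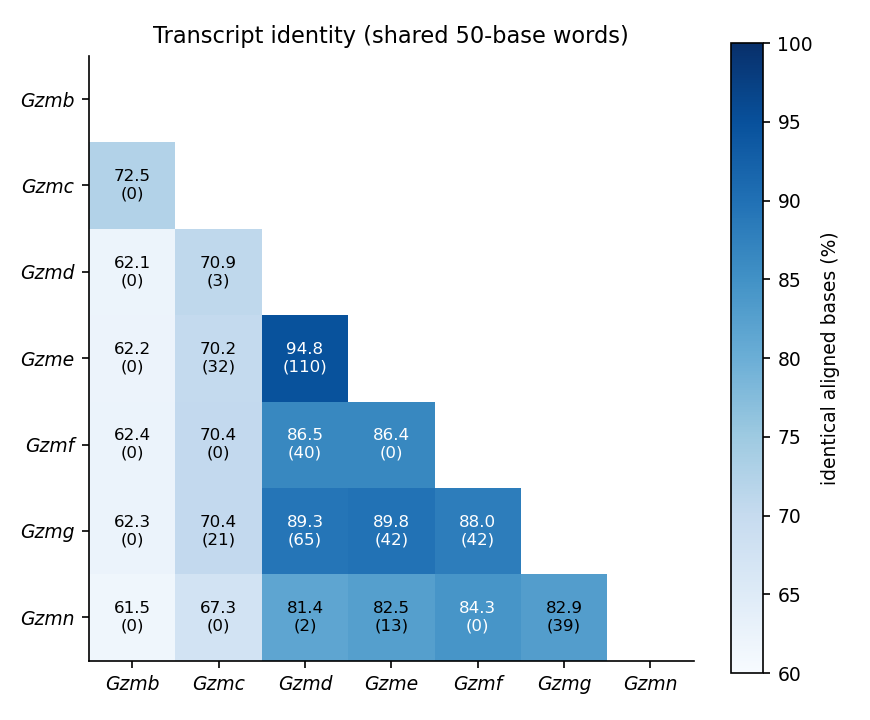
Percent identity of aligned transcripts (shading and upper number) and number of 50-base words in common (in parentheses) for each pair of the 7 granzyme genes on chromosome 14. The darkest cell is the pair of *Gzmd* and *Gzme*, at 94.8% with 110 words, while pairs with *Gzmb* have 0 words in common.

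The promoters of the members were searched for several short motifs. Those of these 4 genes are shown because the genes lie in 1 cluster and are known from the same cell type. In the window from 250 bases before to 50 bases after the start site (RefSeq, GRCm38.p6), all 4 held the letters TGTGGT of a RUNX motif once on the printed strand and once on the other strand. The 100 bases that begin at position -200 from the start site are shown, with capitals at the motif letters (as TGTGGT or, for the other strand, ACCACA), for *Gzmc* (chr14:56234758-56234857), *Gzmd* (chr14:56132694-56132793), *Gzme* (chr14:56120726-56120825) and *Gzmf* (chr14:56211508-56211607).
Gzmc: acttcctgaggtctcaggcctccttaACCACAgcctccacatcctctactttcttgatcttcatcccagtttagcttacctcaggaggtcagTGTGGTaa
Gzmd: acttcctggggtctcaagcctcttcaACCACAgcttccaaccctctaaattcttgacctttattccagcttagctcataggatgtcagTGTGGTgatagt
Gzme: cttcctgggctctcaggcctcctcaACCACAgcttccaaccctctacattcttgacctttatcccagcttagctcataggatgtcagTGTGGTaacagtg
Gzmf: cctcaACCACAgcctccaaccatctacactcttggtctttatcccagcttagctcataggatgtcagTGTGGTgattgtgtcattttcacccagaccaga
The first bases of the 2 matches were 62 apart in *Gzmd*, *Gzme* and *Gzmf* and 66 apart in *Gzmc*. A match on each strand occurred in 0.767% (252 of 32851) of all promoter windows of this length, and at least 1 match in 16.8%. The 4 genes are paralogs, so that their windows do not count as separate observations. Counting windows with a match on each strand was not part of the planned search.

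Windows were found for 8 of the 10 genes, all but *C1qa* and *Csf1r*. *Prf1* held a RUNX match that began at position -130 and the T-box letters AGGTGT at -24, and *Lyz2* held a RUNX match at -66. AGGTGT also occurred at -3 in *Gzme* and at 2 in *Gzmc*, and in 13.7% of all windows. The TATA box letters TATAAA were found at -187 in *Ptprc* and in 13.6% of all windows. The letters GAGGAAGT of PU.1 and TTCNNNGAA of STAT factors (both strands searched for each motif) were found in none of the members' windows and in 3.20% and 8.30% of all windows. These matches are letters only and were not tested for binding.

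The levels were low for most members. In wild type *Csf1r* was highest (FPKM of 10.7), followed by *Lyz2* (3.77) and *Gzme* (1.26), and the other genes were below 1. *Gzmf* and *C1qa* were listed at 0 in wild type, and *Gzmc* and *Prf1* in *tw18*/+. In *tw18*/+ *Csf1r* was again highest, with an interval that overlapped that of *Gzmd*, the next in order. In *tw18*/*tw18* *Lyz2* was highest (13.1), followed by *Csf1r* (8.06), *C1qb* (2.85), *Gzmf* (2.12) and *Gzmd* (1.5), with *Lyz2* and *Csf1r* each separated from the next gene by their counting intervals. In that library *C1qb* and *Gzmf* overlapped in their intervals, as did *Gzmf* and *Gzmd*. The 10 genes summed to 18.4 in wild type, 13.6 in *tw18*/+ and 30.1 in *tw18*/*tw18*. *Csf1r* made up 58.4%, 29.6% and 26.8% of these sums, and *Lyz2* 20.5%, 21.0% and 43.4%. Without *Csf1r* the sums were 7.66, 9.56 and 22.1, and without both genes 3.89, 6.71 and 9.0.

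**Figure D2:**
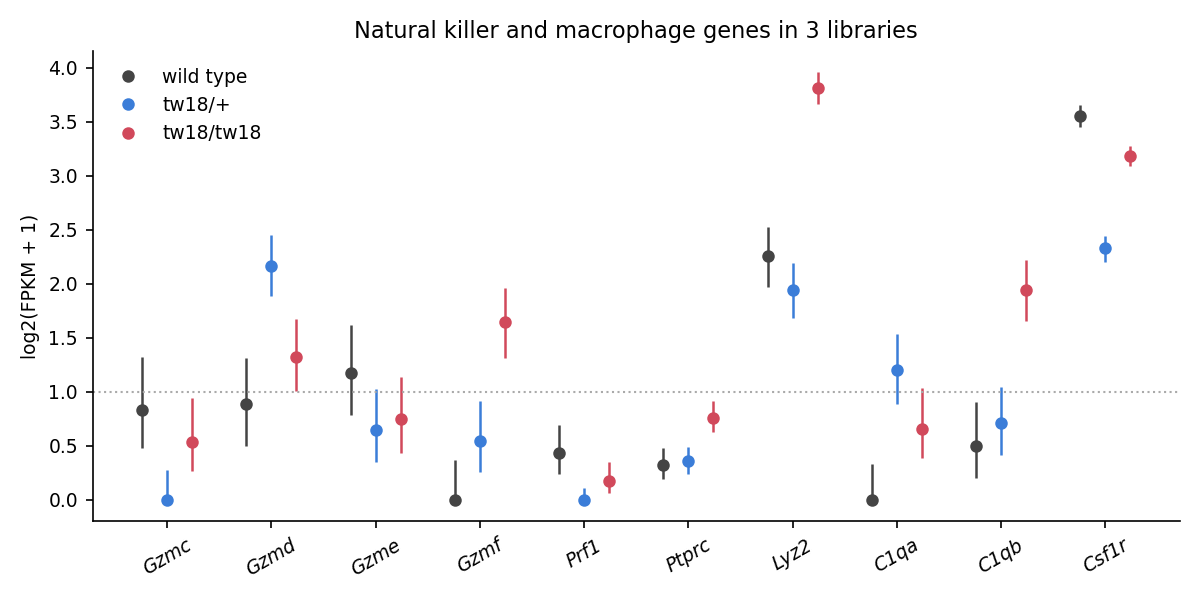
Level of each of the 10 genes as log2(FPKM + 1) in the wild-type, *tw18*/+ and *tw18*/*tw18* libraries (1 point per library), with vertical lines for the 95% counting interval and a dotted line at an FPKM of 1. *Lyz2*, *C1qb*, *Gzmf* and *Ptprc* are highest in *tw18*/*tw18* (FPKM of 13.1, 2.85, 2.12 and 0.695) and *Csf1r* in wild type (10.7).

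Of the 10 genes, 7 reached an FPKM of 1 in 1 library or more, and *Gzmc*, *Prf1* and *Ptprc* stayed below it. A gene was counted as higher or lower when log2(FPKM + 1) differed by at least 1, on which changes of low genes look smaller than their ratios. In *tw18*/*tw18* against wild type, *Gzmf*, *Lyz2* and *C1qb* were higher by this measure and 0 members were lower. Of the 13118 genes of the table that passed the filter, 9.35% were higher and 4.06% lower in this comparison. Against *tw18*/+, the same 3 genes were higher in *tw18*/*tw18* and 0 were lower, beside 8.99% of all genes higher and 2.86% lower. In *tw18*/+ against wild type, *Gzmd* and *C1qa* were higher and *Csf1r* was lower, beside 2.01% and 2.19% of all genes. The calls of *Gzmf* and *C1qa* against wild type rest on a wild-type value listed at 0. *Gzmf* and *C1qb* passed the filter through the *tw18*/*tw18* library alone, *C1qa* through *tw18*/+ alone and *Gzme* through wild type alone. The counts over genes that passed are therefore no support for a direction. The same limit holds for counts in the gene lists below, where *Gzmg*, *Il2rb*, *Lyve1*, *Trem2* and others passed through *tw18*/*tw18* alone, and *Cd52*, *Lat* and others through wild type alone.

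The 10 differences of log2(FPKM + 1) had a median of 0.44 in *tw18*/*tw18* against wild type, with 6 values above 0 and 4 below. With a pseudocount of 0.1 this median was 0.97. Without a pseudocount it was 0.20, but over fewer genes, since *Gzmf* and *C1qa*, listed at 0 in wild type, then drop out. Against *tw18*/+ the median was 0.47, with 8 values above 0 and 2 below, and 1.12 and 1.16 with these settings. The 1.16 leaves out *Gzmc* and *Prf1*, listed at 0 in *tw18*/+. Apart from the setting without a pseudocount, a value listed at 0 enters these medians and signs as 0. In *tw18*/+ against wild type the median was -0.14, with 5 values on each side. Its sign turned with granzymes C to F summed (0.037), over the members that passed the filter (0.21) and without *Csf1r* (0.037), the last chosen after seeing the data. Over all genes that passed the filter the medians were -0.0055, 0.0011 and 0.0042. The comparisons use the same libraries in pairs and are not independent of each other.

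**Figure D3:**
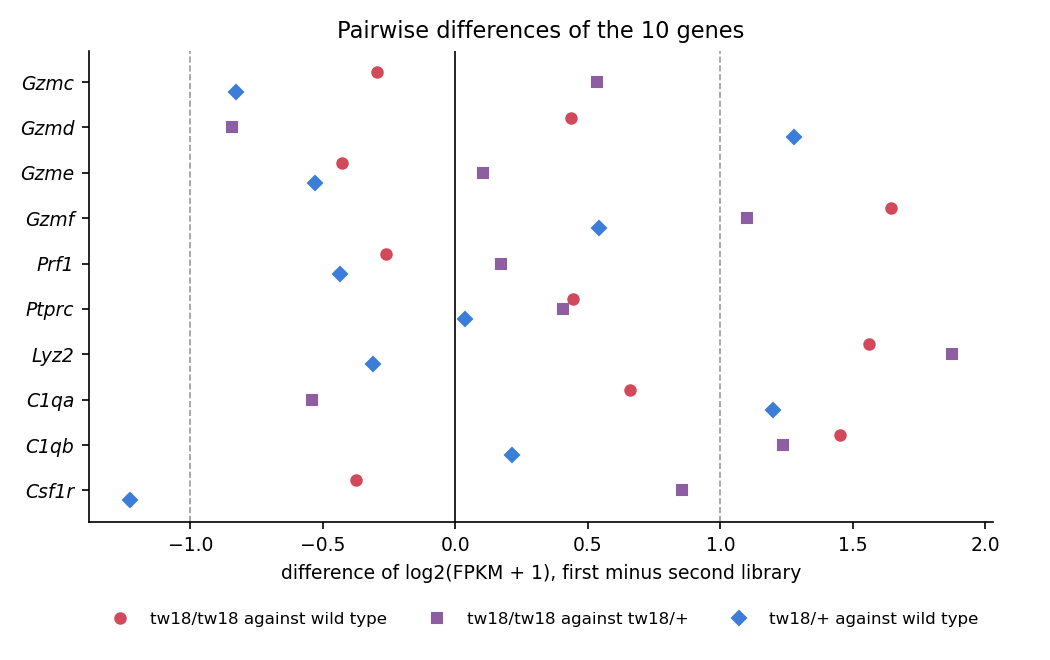
Difference of log2(FPKM + 1) for each of the 10 genes (rows) in *tw18*/*tw18* against wild type (circles), *tw18*/*tw18* against *tw18*/+ (squares) and *tw18*/+ against wild type (diamonds), with dashed lines at a difference of 1 in either direction. *Gzmf*, *Lyz2* and *C1qb* lie beyond the dashed line against both other libraries, while *Csf1r* lies at -0.37 and 0.85.

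Among the granzymes, *Gzmf* had its highest value in *tw18*/*tw18*, *Gzmd* in *tw18*/+, and *Gzme* and *Gzmc* in wild type. *Gzmf*, encoding granzyme F, was listed at 0 in wild type and had FPKM of 0.456 [0.195 to 0.888] in *tw18*/+ and 2.12 [1.48 to 2.90] in *tw18*/*tw18*. These values rest on about 8 and 37 fragments. The *tw18*/*tw18* value was 4.65 times that of *tw18*/+ (95% counting interval 2.14 to 11.6), and the *tw18*/*tw18* interval lay above that of *tw18*/+. It also lay above the wild-type interval, which takes the listed 0 as a count of 0 fragments. The differences of log2(FPKM + 1) were 1.64 against wild type and 1.10 against *tw18*/+.

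*Gzmd*, encoding granzyme D, was highest in *tw18*/+ instead. Its FPKM was 0.850 [0.414 to 1.49] in wild type, 3.49 [2.70 to 4.45] in *tw18*/+ and 1.5 [1.01 to 2.19] in *tw18*/*tw18*, from about 11, 65 and 28 fragments. The *tw18*/+ value was 4.10 times that of wild type (2.2 to 8.84). The *tw18*/*tw18* value was 0.431 times that of *tw18*/+ (0.269 to 0.686), while its ratio to wild type, 1.77, had an interval that included equal levels (0.882 to 4.07).

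*Gzme*, encoding granzyme E, had FPKM of 1.26 [0.726 to 2.06], 0.562 [0.271 to 1.04] and 0.678 [0.354 to 1.2] in wild type, *tw18*/+ and *tw18*/*tw18*. Only about 16, 10 and 12 fragments stood behind these values. The ratios of *tw18*/+ and *tw18*/*tw18* to wild type, 0.448 (0.180 to 1.04) and 0.540 (0.232 to 1.21), were not distinguishable from equal levels at this depth.

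*Gzmc*, encoding granzyme C, had FPKM of 0.775 [0.390 to 1.5] in wild type and 0.447 [0.202 to 0.921] in *tw18*/*tw18*, which stand for about 10 and 8 fragments. In *tw18*/+ it was listed at 0. The ratio of *tw18*/*tw18* to wild type, 0.576 (0.197 to 1.62), included equal levels. *Prf1*, the pore-forming protein of the same granules, lies at chr10:61297833-61304680 on the forward strand and was listed at 0 in *tw18*/+ too. Its FPKM was 0.353 [0.182 to 0.616] in wild type and 0.127 [0.0465 to 0.276] in *tw18*/*tw18*, from about 12 and 6 fragments, with a ratio of 0.360 (0.111 to 1.03). *Prf1*, which shares 0 of its 50-base words with another gene, was thus not found higher in *tw18*/*tw18*, unlike *Gzmf*.

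Summed over granzymes C to F, FPKM was 2.88 in wild type, 4.51 in *tw18*/+ and 4.75 in *tw18*/*tw18*, from about 36.6, 82.9 and 84.6 fragments. The sum in *tw18*/*tw18* was 1.65 times that of wild type and 1.05 times that of *tw18*/+, and the sum in *tw18*/+ was 1.56 times that of wild type. On the log2(FPKM + 1) scale these differences of the sums were 0.57, 0.063 and 0.50, none of them as large as 1. The make-up of the sum differed between the libraries. *Gzme* held 43.6% of it in wild type, *Gzmd* 77.4% in *tw18*/+ and *Gzmf* 44.7% in *tw18*/*tw18*. The part of the sequence shared between these genes in the proportions was not tested.

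**Figure D4:**
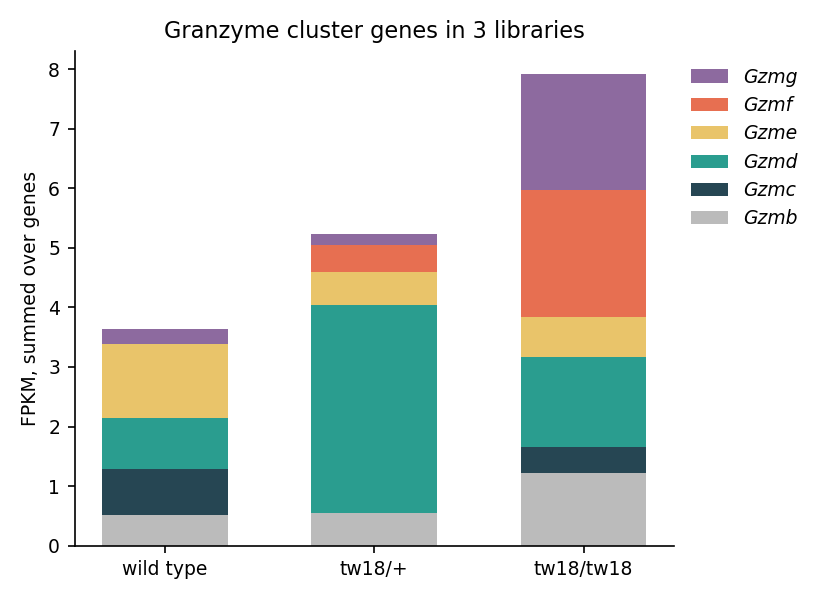
FPKM of 6 granzyme genes of the chromosome 14 cluster, stacked for the wild-type, *tw18*/+ and *tw18*/*tw18* libraries. The stacks reach 3.63, 5.23 and 7.91, with *Gzmd* as the widest segment in *tw18*/+ and *Gzmf* and *Gzmg* as the widest in *tw18*/*tw18*.

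Of the neighbouring genes *Gzmg* and *Gzmb*, which are not among the 10, *Gzmg* was higher in *tw18*/*tw18* by a difference of at least 1 against both other libraries and *Gzmb* was not. *Gzmg*, encoding granzyme G, had FPKM of 0.239, 0.171 and 1.95 in wild type, *tw18*/+ and *tw18*/*tw18*, from about 3, 3 and 34 fragments. *Gzmb*, encoding granzyme B, the main inducer of apoptosis among granzymes and a gene with 0 shared 50-base words, had 0.511, 0.549 and 1.22, a difference of 0.55 against wild type. *Gzmn* and *Gzmk* were listed at 0 in all libraries. With *Gzmb* and *Gzmg* added, the granzyme sum was 3.63 in wild type, 5.23 in *tw18*/+ and 7.91 in *tw18*/*tw18*.

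Of 11 other genes of granzymes and cytotoxic granules, 4 passed the filter. *Gzmg*, *Srgn* and *Serpinb9* were higher in *tw18*/*tw18* than in wild type, and 0 were lower. *Gzmg* passed the filter through *tw18*/*tw18* alone. *Srgn*, encoding the granule proteoglycan serglycin, had FPKM of 85.9, 133 and 265, far above any granzyme, and it is made by many cell types besides leukocytes. *Serpinb9*, an inhibitor of granzyme B, had 2.26, 3.04 and 16. The median over the 11 genes was 0.090 in *tw18*/*tw18* against wild type.

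Receptors and regulators of NK cells were mostly not seen. Of 17 such genes, *Klrb1c*, *Klrk1*, *Klrd1*, *Klrc1*, *Klre1*, *Ncr1*, *Cd96*, *Ifng*, *Ccl5* and *Txk*, or 10 in all, were listed at 0 in the 3 libraries. *Ncr1* and *Klrb1c* are defining receptors of mouse NK cells. Only *Il2rb* and *Gimap4* passed the filter, and both were higher in *tw18*/*tw18* than in either other library. *Il2rb* passed through *tw18*/*tw18* alone, so that its place in this count is no support for a direction. *Il2rb*, the receptor subunit through which NK cells receive the interleukin 15 signal, had FPKM of 0.161, 0.327 and 1.68, from about 9, 26 and 135 fragments, and its ratio of *tw18*/*tw18* to wild type was 10.4 (5.51 to 24.1). *Gimap4*, a GTPase of lymphocytes, had 2.28, 2.38 and 9.69.

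*Ptprc*, on chr1:138062861-138175708 of the reverse strand, was low in every library and highest in *tw18*/*tw18*. Its FPKM was 0.248 [0.142 to 0.390] in wild type, 0.280 [0.182 to 0.401] in *tw18*/+ and 0.695 [0.544 to 0.887] in *tw18*/*tw18*, from about 17, 27 and 68 fragments. The *tw18*/*tw18* interval lay above the other two, at 2.80 times wild type (1.67 to 5.21) and 2.48 times *tw18*/+ (1.60 to 4.13). Wild type and *tw18*/+ did not differ beyond counting error (1.13, 0.594 to 2.21). Since *Ptprc* stayed below an FPKM of 1, its difference of 0.44 against wild type on the log2(FPKM + 1) scale is much smaller than the ratio.

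Other genes used by most leukocytes differed in both directions. Of 14 such genes, 9 passed the filter, and in *tw18*/*tw18* against wild type *Arhgdib* was higher and *Cd52* lower. *Arhgdib* had FPKM of 22, 20.5 and 62.3, whereas *Cd52*, a small surface antigen of lymphocytes, had 1.30 in wild type and was listed at 0 in both other libraries. Against *tw18*/+, *Arhgdib*, *Lcp1* and *Laptm5* were higher and *Coro1a* was lower. *Lcp1*, the actin bundling protein L-plastin, had 17.4, 13.4 and 34.3, and *Coro1a*, an actin regulator, 2.86, 4.16 and 1.34. The median difference over the 14 genes was 0.029 against wild type, near that of all genes, although the summed FPKM was 60.7, 51.1 and 113.

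Among the macrophage genes, *Lyz2* was well above both other libraries in *tw18*/*tw18*. *Lyz2*, encoding the lysozyme of macrophages and granulocytes, lies at chr10:117277331-117282321 on the reverse strand. Its FPKM was 3.77 [2.92 to 4.77] in wild type, 2.85 [2.22 to 3.57] in *tw18*/+ and 13.1 [11.7 to 14.5] in *tw18*/*tw18*, from about 68, 72 and 329 fragments. The *tw18*/*tw18* level was 3.47 times that of wild type (2.67 to 4.58) and 4.59 times that of *tw18*/+ (3.56 to 6.03). Wild type and *tw18*/+ overlapped, at a ratio of 0.755 (0.533 to 1.07). The adjacent paralog *Lyz1*, which holds the 15.4% of *Lyz2* words of 50 bases found in another gene, was low, with FPKM of 0.0572, 0.0410 and 0.577.

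The chains of C1q did not move together. *C1qb*, on chr4:136880129-136886187, had FPKM of 0.409 [0.147 to 0.873] in wild type, 0.635 [0.329 to 1.06] in *tw18*/+ and 2.85 [2.16 to 3.65] in *tw18*/*tw18*, from about 6, 13 and 59 fragments. Its ratios were 6.96 against wild type (3.06 to 20.0) and 4.49 against *tw18*/+ (2.48 to 9.10). *C1qa*, on chr4:136895917-136898803, was listed at 0 in wild type, and it was higher in *tw18*/+ at 1.29 [0.846 to 1.90] than in *tw18*/*tw18* at 0.578 [0.311 to 1.05]. About 26 and 12 fragments were behind these values, with a ratio of *tw18*/*tw18* to *tw18*/+ of 0.447 (0.214 to 0.956).

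*C1qc*, the gene of the third chain, lies between them and had FPKM of 0.618, 0.246 and 0.643, from about 10, 6 and 15 fragments. All 3 genes are on the reverse strand within 1 cluster. Added up, the chains came to 1.03 in wild type, 2.18 in *tw18*/+ and 4.07 in *tw18*/*tw18*. In this sum *tw18*/*tw18* was highest, and 2.85 of its 4.07 came from *C1qb*.

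*Csf1r* had the opposite order to *Lyz2* between wild type and *tw18*/*tw18*. The gene, encoding the receptor of colony stimulating factor 1 and interleukin 34, had FPKM of 10.7 [9.96 to 11.6] in wild type, 4.02 [3.61 to 4.44] in *tw18*/+ and 8.06 [7.49 to 8.68] in *tw18*/*tw18*. With about 694, 364 and 726 fragments it was the best counted of the 10 genes, and all 3 intervals were separate. *tw18*/+ was at 0.374 times wild type (0.328 to 0.424), and *tw18*/*tw18* at 0.750 times wild type (0.676 to 0.834) and 2.01 times *tw18*/+ (1.77 to 2.29). *Csf1r* was thus lower in *tw18*/*tw18* than in wild type beyond counting error, while *Lyz2*, *C1qb* and *Ptprc* were higher, and the spread between embryos is not known for any of them. The intervals do not cover the scaling of the libraries. The *Csf1r* difference of log2(FPKM + 1) in *tw18*/*tw18* against wild type was -0.37, and -0.18 after rescaling to equal FPKM sums.

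Of 8 ligands of these lineages, 5 had their highest value in *tw18*/*tw18*, and 7 passed the filter. The share of all genes with their highest value in that library was not computed, so that the 5 are no result about these ligands. *Il34* was listed at 0 in all libraries, and *Csf1*, the other ligand of CSF1R, had FPKM of 0.305, 0.0946 and 1.05. *Il15*, which NK cells need, had 0.625, 1.59 and 1.92. *Cxcl14* and *Tgfb1* were higher and *Cxcl12* was lower in *tw18*/*tw18* against wild type. *Cxcl14*, a chemokine made by epithelial and stromal cells, had 14.4, 15.9 and 88.8, *Tgfb1* 1.97, 2.23 and 5.75, and *Cxcl12*, a chemokine for many leukocytes, 21.2, 14.1 and 7.32. *Ccl2*, which draws monocytes, was counted only against *tw18*/+, where it was listed at 0, with FPKM of 0.359 in wild type and 1.04 in *tw18*/*tw18*.

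Of 24 other macrophage and monocyte genes found in the table, 16 were highest in *tw18*/*tw18*, and the summed FPKM of the 24 was 15.2, 17.4 and 37.9. Here too the share over all genes was not computed, so that the 16 are no result about macrophages. Of the 9 genes of this list that passed the filter, *Fcer1g*, *Lyve1*, *Trem2* and *Csf2ra* were higher in *tw18*/*tw18* than in wild type and 0 were lower. *Lyve1* and *Trem2* passed through *tw18*/*tw18* alone. *Fcer1g*, the signalling chain of several Fc receptors in macrophages and NK cells, had FPKM of 0.880, 1.81 and 6.18. *Lyve1*, a hyaluronan receptor of resident macrophages that lymphatic endothelium also makes, had 0.278, 0.696 and 2.82. *Trem2*, a lipid receptor of macrophages, was listed at 0 in wild type and had 0.618 and 1.39, and *Csf2ra*, a receptor subunit for colony stimulating factor 2, had 1.80, 4.21 and 5.44.

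Against *tw18*/+, 4 of these macrophage genes were higher in *tw18*/*tw18*, namely *Fcer1g*, *Lyve1*, *Mpeg1* and *Cd68*. *Mpeg1*, like *Lyve1*, passed the filter through *tw18*/*tw18* alone. The median difference over the 24 genes was 0.37 against wild type and 0.37 against *tw18*/+. *Aif1*, *Pf4* and *Ly86* were listed at 0 in every library. *Aif1* encodes IBA1, a protein commonly used to stain macrophages.

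Markers of other leukocytes were few and did not all point the same way. Of 8 T cell markers 2 passed the filter, and *Lat*, an adaptor of the T cell receptor, was lower in *tw18*/*tw18* than in wild type (FPKM of 1.94, 0.883 and 0), while *Cd8a*, a coreceptor of cytotoxic T cells, had 2.50, 1.12 and 5.77. None of 6 B cell markers and none of 6 dendritic cell markers passed, and the highest sums of these lists were 1.38 and 0.789. Of 11 neutrophil and mast cell markers 3 passed and 6 were listed at 0 in every library, among them *Elane*, *Cpa3* and *Mcpt4*. In *tw18*/+ *S100a9*, a calcium-binding protein of neutrophils, was higher than in wild type (1.04, 4.57 and 0.427). These neutrophil and mast cell genes summed to 7.09, 11.8 and 6.86, with *S100a8* as the largest part (4.06, 6.88 and 5.19). The part of granulocytes in the *Lyz2* level was not tested.

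Markers of uterine and vascular tissue were present in all 3 libraries and differed between them. All 13 decidua markers passed the filter, and 8 were higher and 2 lower in *tw18*/*tw18* than in wild type, with 10 higher and 0 lower against *tw18*/+. Their summed FPKM was 1907 in wild type, 381 in *tw18*/+ and 1132 in *tw18*/*tw18*. *Prl8a2*, a prolactin family hormone of decidua, made up most of the wild-type sum, with 1504, 155 and 377. *Prl3c1*, of the same family, had 121, 13.2 and 25.2. By contrast *Hoxa11*, a transcription factor of uterine stroma, had 3.67, 6.87 and 30.8, *Col1a1* 35.9, 32.0 and 174, and *Col3a1* 5.44, 5.58 and 31.9.

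*Prl8a2* and *Prl3c1* thus had the order of *Csf1r*, with wild type highest and *tw18*/+ lowest, while *Hoxa11*, *Col1a1* and *Col3a1* were highest in *tw18*/*tw18*, as were *Lyz2*, *C1qb*, *Gzmf* and *Ptprc*. The highest value was in *tw18*/*tw18* for 10 of 13 decidua, 9 of 10 endothelium, 8 of 9 visceral endoderm and 0 of 9 epiblast markers. The share of all genes with either order was not computed, so that a shared order is no result about a tissue. Of 10 endothelium markers, 5 were higher in *tw18*/*tw18* than in wild type and 0 lower, and their sum was 60.2, 47.4 and 121. *Eng*, a coreceptor of transforming growth factor beta, had 2.72, 2.51 and 15.6, and *Emcn* 2.48, 4.97 and 11.9. Of 7 trophoblast giant cell markers 1 was higher and 1 lower, with sums of 137, 81.8 and 247, and *Prl3b1* and *Ctsq* were listed at 0 in all libraries. Of the prolactin family genes of this list, *Prl7a1* (9.06, 3.74 and 8.70) and *Prl2c2* (1.74, 0.131 and 0.396) had the order of *Csf1r*, whereas *Prl3d1* (113, 61.5 and 202) and *Prl4a1* (3.65, 2.37 and 0.735) did not. The part of these tissues in the levels of the 10 genes was not tested.

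Among 9 erythroid markers, 3 were higher and 1 lower in *tw18*/*tw18* than in wild type. *Hba-a2* had FPKM of 0.0201, 26.9 and 127, while its near-identical copy *Hba-a1* had 52.2, 27.1 and 0.0070, so that single values of near-identical genes in this table can trade places. *Hbb-bs*, of adult globin, had 0.0180, 0.555 and 47.6, and the embryonic globin genes *Hbb-y*, *Hba-x* and *Hbb-bh1* were listed at 0 in all libraries. The erythroid list summed to 52.5, 56.3 and 177. Its part in the leukocyte values was not tested.

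The labelled tissue was present in each library. All 9 epiblast markers passed the filter, and their sums were 1857, 1990 and 965. *Nanog*, *Tdgf1*, *Sox2* and *Pou5f1*, genes of the pluripotent epiblast, were lower in *tw18*/*tw18* than in wild type, for *Pou5f1* at 628, 721 and 274. All 9 visceral endoderm markers passed as well, with sums of 886, 887 and 1214, and *Cer1* was higher in *tw18*/*tw18* (46.6, 61.3 and 140). Set against *Pou5f1*, *Lyz2* and *Csf1r* remained minor transcripts in every library, and *Lyz2* ranked 5288 of 23421 genes in *tw18*/*tw18*.

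**Figure D5:**
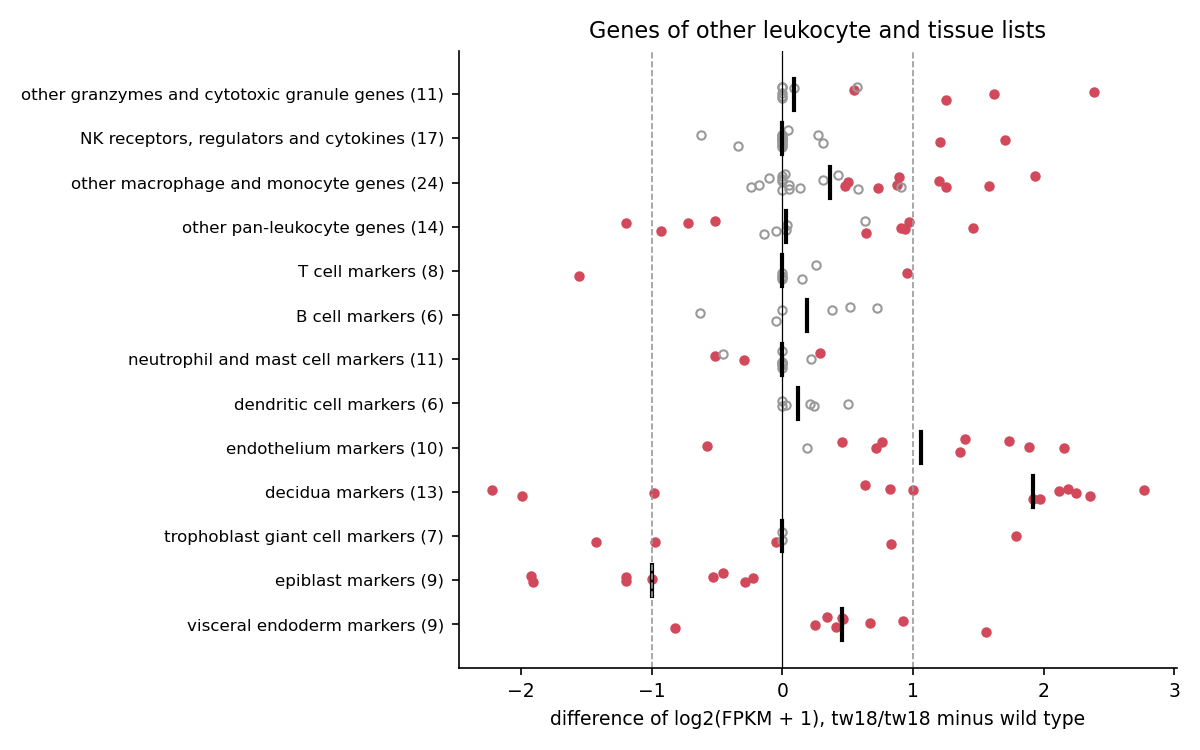
Difference of log2(FPKM + 1) in *tw18*/*tw18* against wild type for the genes of 13 lists (rows, with the number of genes), filled points for genes that passed the filter, open points for the others, and a black bar at each list median. The decidua and endothelium medians lie at 1.91 and 1.06, the epiblast median at -1.0, and the medians of NK receptors and T cell markers at 0.

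Among the 5 genes of the table whose profile over the 3 libraries was nearest to the median profile of the members that passed the filter were *Gys1*, *Usp17la*, *Pdzrn3* and *Cgn*. The measure was the Euclidean distance between values of log2(FPKM + 1) centred on each gene's mean, and all 5 lay at 0.350, close to the smallest distance a gene can have, since the median profile itself does not average to 0. *Gys1*, encoding glycogen synthase, had FPKM of 7.40, 9.68 and 12.7. The 7 members that passed lay at 0.746 (*C1qb*) to 1.19 (*Csf1r*), farther than the median of 0.719 over all genes that passed. With only 3 libraries as points, likeness of profiles describes these libraries. No distance was computed for *Gzmc*, *Prf1* and *Ptprc*, which did not pass the filter.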

How the data were processed

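RNA from 3 libraries, 1 per genotype, was prepared with a strand-specific random-primed kit after removal of ribosomal RNA and sequenced as paired 50-base reads. Per the methods and the submitters' processing notes, the authors mapped reads to mm10 (GRCm38) with TopHat2 and Bowtie 1.0.0 and computed the deposited FPKM values with Cuffdiff of Cufflinks 2.2.1. FPKM is scaled by library size, so a very abundant gene can lower the others. The methods call the values normalized, and their sums were 444064 in wild type, 455078 in *tw18*/+ and 383409 in *tw18*/*tw18*. The gene annotation, the library normalization and the treatment of fragments matching several genes are not given in the sources used here.

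The deposited FPKM values were analysed in Python 3.11.15 (pandas 2.3.3, numpy 2.4.6, scipy 1.17.1), with plots by matplotlib 3.10.9. Groups came from the sample labels and table headers. Differences used log2(FPKM + 1), a filter of FPKM of at least 1 in at least 1 library (13118 genes) and a threshold of 1. No test was run, since each genotype had 1 library.

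Depth came from genes with 1 annotated transcript of at least 600 bases. Values above 0 were used where FPKM times transcript length in kilobases was under 0.3 (167, 318 and 246 values in wild type, *tw18*/+ and *tw18*/*tw18*). No allowance for fragment length was used. The planned allowance of 150 bases was replaced after seeing the data, because fewer low values then lay near whole fragments (73.1% to 79.4%). Fragment numbers use the annotated length, for *Ptprc*, *Csf1r*, *Prf1* and *C1qc* that of the longest coding transcript. Ratio intervals are exact Clopper-Pearson intervals on 2 fragment numbers, and they ignore how fragments were divided among paralogs. The accuracy of the calls and depth estimates at the low levels of most members was not tested.

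The members and gene lists were chosen with earlier results of these data known. The text names all 10 members, up to 4 genes per list past the threshold in any comparison, ordered by the difference between *tw18*/*tw18* and wild type, those at 0 in all libraries, and the 5 nearest profiles, of which 1 is not reported here. *Gzmb*, *C1qc*, *Lyz1*, *Csf1*, *Il15*, *Laptm5*, *Mpeg1*, *Cd68*, *S100a8*, *Prl7a1* and *Prl8a2* were named outside this rule after their values were seen. *Adgre1* was read under its older symbol *Emr1*, and *Spi1* and *Hbb-bt* were not analysed here. Alternatives covered the pseudocount, scaling, filter, threshold, paralogs and fragment length.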

Additional observations from a re-analysis of the deposited data

How the results depend on the processing

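No paired analysis was possible because each genotype had 1 library, and for the same reason no library could be left out. With the threshold at 2 in place of 1, 0 members differed in each of the 3 comparisons. A pseudocount of 0.1 gave 5 members past the threshold in *tw18*/*tw18* against *tw18*/+ (3 higher and 2 lower) and 5 in *tw18*/+ against wild type (3 higher and 2 lower), in place of 3 in each, while without a pseudocount the former count was 6 (4 higher and 2 lower). The median over the members in *tw18*/*tw18* against wild type, 0.44 as reported, was 0.97 with a pseudocount of 0.1, 0.20 without one, 0.57 with granzymes C to F summed and 0.66 over members that passed the filter. In *tw18*/*tw18* against *tw18*/+ it was 1.12 with a pseudocount of 0.1, 1.16 without one and 0.85 over members that passed, in place of 0.47. Medians without a pseudocount leave out the members listed at 0 in either library, so that the set of genes changes as well. These were *Gzmf* and *C1qa* against wild type, and *Gzmc* and *Prf1* against *tw18*/+. In *tw18*/+ against wild type the sign of the median was not stable: it was -0.14 as reported, but 0.037 with granzymes C to F summed, 0.21 over members that passed and 0.037 without *Csf1r*, an alternative chosen after seeing the data. For single members that passed the filter, none of the differences changed sign or dropped below the threshold under another pseudocount or scaling, and 11 of 101 came to pass it, among them *Csf1r* in *tw18*/*tw18* against *tw18*/+ (1.01 without a pseudocount, 1.07 after rescaling to equal FPKM sums). The fragment numbers under allowances of 150 and 250 bases stayed within the Poisson interval of the reported ones. Depth limits the low genes most, with 3 fragments worth an FPKM of 0.226 in wild type for *Gzmd*.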
